A study of Mus musculus with 12 samples.

Results

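The genes described here carry the symbols of the proteins of the cytosolic ribosome and were measured in mouse blastocysts in which the mRNA of Nampt had been targeted with siRNA. They were chosen by gene symbol alone, as every symbol of the forms Rpl or Rps with a number, the stalk proteins Rplp0, Rplp1 and Rplp2, Rpsa and Rps3a1, with suffixes such as a, x and l allowed. This gave 79 of the 24411 genes in the tables, 46 of the large subunit and 33 of the small subunit, and all 79 passed the filter on low counts among 14743 genes tested. Of these symbols 78 have a protein-coding transcript in GENCODE, and Rps4l, which RefSeq lists with a non-coding transcript alone, has none. Embryos of the ICR_WT genotype came from in vitro fertilization and were grown in KSOM medium to the blastocyst stage at 96 hours post insemination. At 3 to 6 hours the one-cell embryos of the siNampt groups received siRNAs against Nampt by electroporation and those of the siNT groups received non-targeting siRNAs. The labels call the remaining groups controls (C) and do not say whether these embryos were electroporated. Each treatment was done in an HFD and an ND set, whose names the labels do not spell out, while the series title speaks of normal weight and obese mice. Each of the 6 groups (HFD siNampt, HFD siNT, HFD C, ND siNampt, ND siNT and ND C) held 2 libraries of poly(A) RNA, each from a pool of 10 blastocysts. The labels do not say that the pools came from separate matings, so p-values measure only the spread between pools.

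The ribosome has a small subunit, which reads the mRNA, and a large subunit, which joins the amino acids and carries the exit tunnel and the stalk that recruits translation factors. Nearly every protein is present once per ribosome, so their production is balanced, and in mammals their mRNAs share a short pyrimidine stretch at the 5′ end, the 5′ TOP motif, through which mTORC1 and Larp1 control their translation. Blastocysts make ribosomes actively after genome activation, and ribosomal protein mRNAs are among the shortest and most abundant of any cell. Nampt makes nicotinamide mononucleotide, the precursor of NAD in the salvage pathway.

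The starts of 13 members are shown, because they are among the 5 highest or 5 lowest of their subunit by TPM. They differ in the pyrimidine stretch that marks the 5′ TOP motif. Each line gives 15 bases before and 15 bases from an annotated start, in RefSeq's GRCm38.p6, the build that mm10 corresponds to. Capitals mark the longest run of C and T letters in the window. Rpl34, Rpl22 and Rps27l have 2 starts listed, and for them the start with the longest run was picked. On the plus strand the windows lie at chr11:114668565-114668594 (Rpl38), chr13:90923107-90923136 (Rps23), chr9:120127751-120127780 (Rpsa), chr9:66946071-66946100 (Rps27l), chr4:152324421-152324450 (Rpl22). On the minus strand they lie at chr2:39005117-39005146 (Rpl35), chr3:130730323-130730352 (Rpl34), chr3:90213634-90213663 (Rps27), chrX:37085208-37085237 (Rpl39), chr10:23787195-23787224 (Rps12), chr7:118116133-118116162 (Rps15a), chr10:128549154-128549183 (Rpl41), chr7:99483695-99483724 (Rps3).
Rpl38: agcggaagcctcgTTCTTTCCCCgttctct
Rpl35: cggccccgCCCTTTCCTCTTTCTCTCgaac
Rpl34: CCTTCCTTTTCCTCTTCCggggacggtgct
Rps27: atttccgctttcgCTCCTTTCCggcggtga
Rpl39: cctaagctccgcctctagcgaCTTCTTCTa
Rps23: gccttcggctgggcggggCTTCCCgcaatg
Rps12: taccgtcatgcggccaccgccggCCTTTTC
Rpsa: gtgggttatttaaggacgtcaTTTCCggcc
Rps15a: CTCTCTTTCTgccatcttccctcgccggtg
Rps27l: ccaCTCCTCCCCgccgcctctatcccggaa
Rpl22: cgctgCTTCTggaatgttccagctcccact
Rpl41: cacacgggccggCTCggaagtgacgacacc
Rps3: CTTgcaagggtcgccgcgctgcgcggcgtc
The longest run spans the annotated start in Rpl38 (10 letters), Rpl35 (18), Rpl34 (18) and Rps27 (9). It lies after the start in Rpl39 (8 letters), Rps23 (6), Rps12 (7) and Rpsa (5). It lies wholly before the start in Rps15a (10 letters), Rps27l (9), Rpl22 (5), Rpl41 (3) and Rps3 (3), and so outside the mRNA annotated from the start shown. In Rps15a a shorter run of C and T letters spans the start, and in Rpl22 a run as long as the marked one lies after it. Runs that touch the edge of a window were cut there and may be longer. RefSeq's table of promoters held 58 of the 79 members. Runs of at least 8 C or T letters within 50 bases of the start on either side were sought on the strand that reads like the mRNA. They stood there in 49 of these 58 genes (84.5%), against 39.3% of the 27025 genes in the table. By window, 79.7% of the 69 member windows held such a run on that strand and 23.2% on the other strand, against 35.7% and 38.1% of all 32851 windows. A match describes these letters only and does not show a functional motif.

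Libraries held 42473129 to 50503064 expected counts, spread over 16473 to 17948 genes. Nampt, the targeted gene, had 50.3 and 44.0 CPM (counts scaled to the size of the library) in HFD siNampt pools, against 61.3 and 66.0 CPM in HFD siNT pools and 67.0 and 57.3 CPM in HFD C pools. In ND it had 53.9 and 37.7 CPM in siNampt pools, against 74.6 and 49.4 CPM in siNT pools and 54.2 and 38.2 CPM in C pools. The siNampt pools were apart from the siNT and C pools in HFD and overlapped them in ND. The labels tag replicate numbers as batches, and in both ND batches siNampt lay below siNT and just below C. The log2 fold change of siNampt over siNT was -0.43 (SE 0.24) in HFD and -0.44 (SE 0.24) in ND. Over both diets the log2 fold change of siNampt over siNT was -0.43 (SE 0.17), which did not pass the test (edgeR quasi-likelihood test with Benjamini-Hochberg adjustment, adjusted p = 0.396). Over C it was -0.21 (SE 0.17) for siNampt and 0.22 (SE 0.17) for siNT, and neither passed. The 8 trophectoderm markers summed to 2784 to 5278 TPM over all libraries, the 8 inner cell mass markers to 132 to 239.7 TPM and the 8 primitive endoderm markers to 209 to 337 TPM, with none of them at 0 in all libraries. Sperm markers summed to 1.67 to 5.29 TPM with Smcp, Spem1 and Tnp1 at 0 in every library. The cumulus and granulosa list summed to 69.5 to 167 TPM, nearly all from Serpine2 (mean 109 TPM), and its genes Fshr, Amh and Cyp19a1 stayed at 0 to 0.06 TPM.

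Ribosomal protein mRNAs made up 13.6% to 15.3% of all TPM (a level per transcript length, on a scale common to all libraries) and 6.28% to 7.38% of all counts in a library. By TPM, 56 of the 79 members had a mean above 1000, and 33 were among the 100 most abundant genes of the blastocyst. The members had a median coefficient of variation over the 12 libraries of 7.43%. It was 10.8% for 1335 other genes with a mean TPM at or above that of the lowest member. These genes were not matched to the members on level, so the values do not show that members are steadier for their level. Their transcripts are short: 62 of 79 had a listed length under 1000 bases, with a median of 703 bases against 2621 bases over all genes tested.

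**Figure D1:**
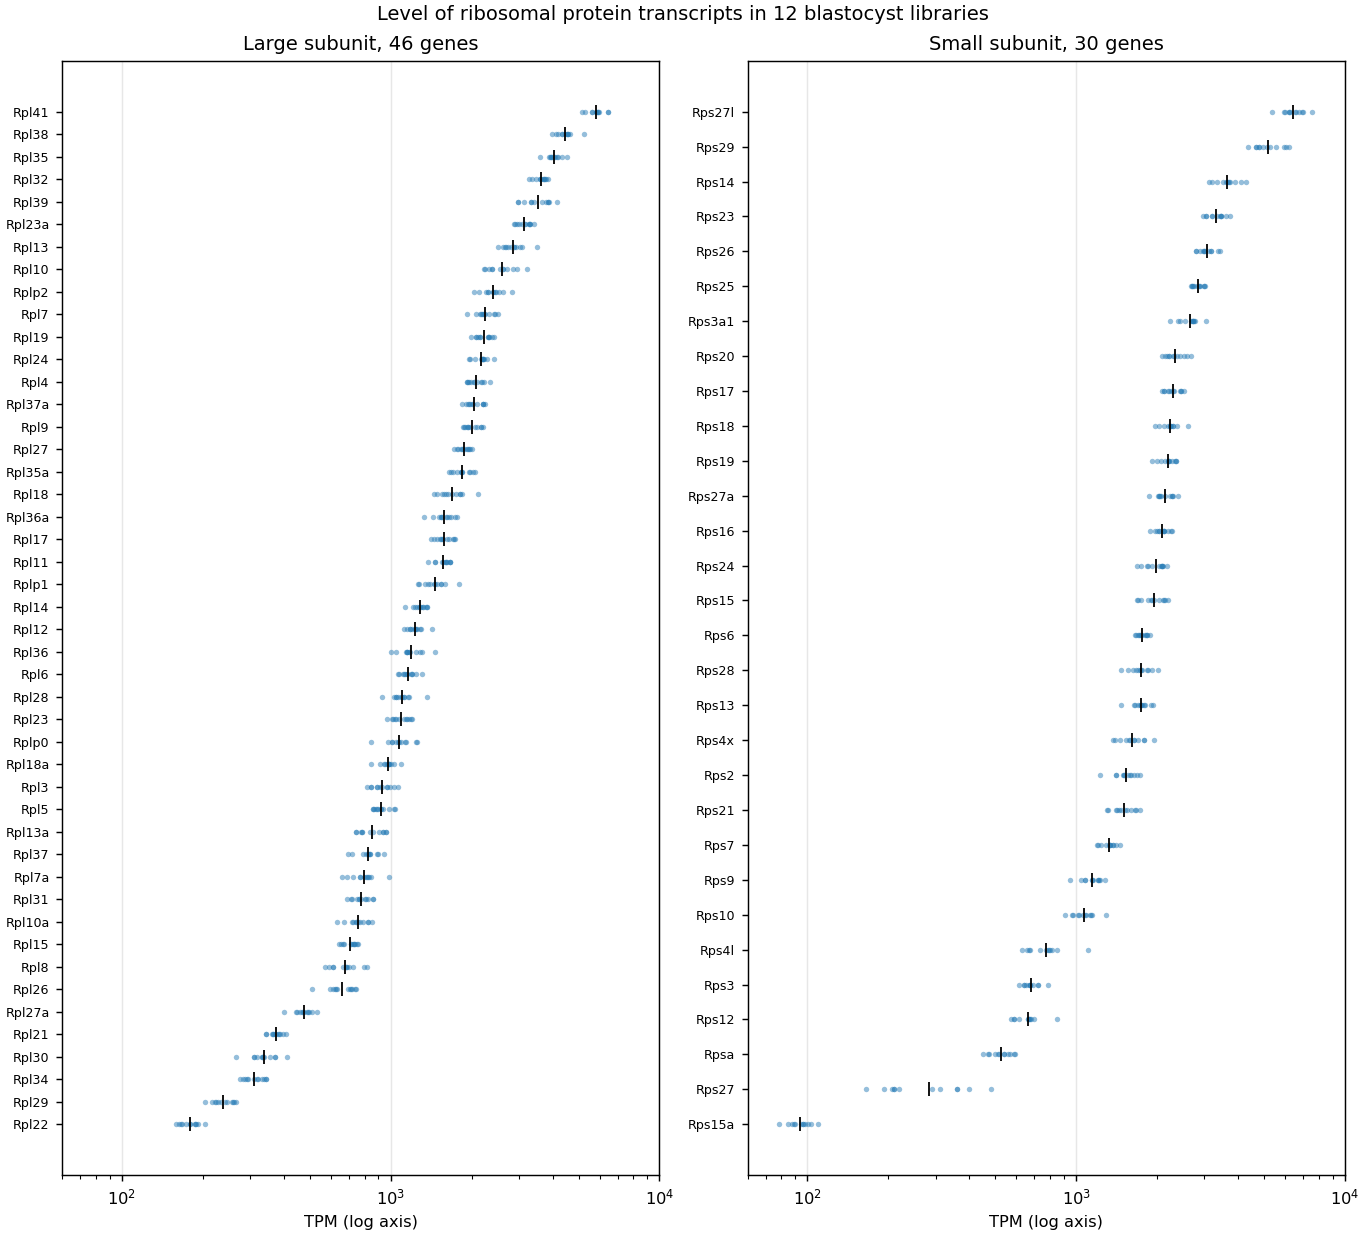
Level of 76 of the 79 ribosomal protein transcripts in TPM (log axis), with 1 dot per library (12 libraries) and a black bar at the mean, large subunit genes on the left and small subunit genes on the right, ordered by mean. The middle of the genes lies between 887 and 2263 TPM (quartiles of the means of all 79), the dots of a gene lie close together, and Rps27 is the gene with the widest spread (35.0% coefficient of variation).

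In the large subunit the mean level ran from 179 TPM for Rpl22 to 5805 TPM for Rpl41, a range of 32.5-fold with a median of 1257 TPM. Rpl41 (chr10:128548110-128549168 in GRCm38, as all positions here), which codes for the smallest ribosomal protein, averaged 5805 ± 384 TPM (SD, n = 12). It was followed by Rpl38 at 4455 ± 320 TPM, a protein known in mice for its role in translating Hox mRNAs, and by Rpl35 at 4051 ± 239 TPM, which sits at the mouth of the exit tunnel. Rpl32 at 3618 ± 177 TPM and Rpl39, which lines the exit tunnel, at 3526 ± 387 TPM completed the 5 most abundant. The values of Rpl38, Rpl35, Rpl32 and Rpl39 overlapped between neighbours in this order, while 11 of the 12 values of Rpl41 lay above the highest of Rpl38. At the low end stood Rpl22 at 179 ± 13.6 TPM, Rpl29 at 238 ± 20.1 TPM, Rpl34 at 311 ± 24.8 TPM, Rpl30 at 337 ± 37.0 TPM and Rpl21 at 374 ± 19.4 TPM.

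The stalk proteins, which recruit the GTPase factors of translation, differed in level. Rplp2 averaged 2395 ± 210 TPM, Rplp1 1457 ± 149 TPM and Rplp0, the base to which the others bind as pairs, 1073 ± 112 TPM (SD, n = 12). The lowest Rplp2 value, 2037 TPM, lay above the highest Rplp1 value, 1794 TPM. Rplp1 and Rplp0 lay closer, with the highest Rplp0 value, 1249 TPM, just under the lowest Rplp1 value, 1261 TPM.

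In the small subunit the mean level ran from 94.0 TPM for Rps15a to 6435 TPM for Rps27l, a range of 68.5-fold with a median of 1946 TPM. Rps27l (chr9:66944624-66949522), a paralog of Rps27 known as a p53 target, averaged 6435 ± 585 TPM and was the most abundant member of either subunit. Among the other highest, Rps29 averaged 5193 ± 613 TPM, Rps14 3654 ± 343 TPM and Rps23, which lies at the decoding centre, 3327 ± 240 TPM (SD, n = 12). The 5 lowest were Rps15a at 94.0 ± 8.55 TPM, Rps27 at 284 ± 99.4 TPM, Rpsa, also known as the laminin receptor, at 525 ± 46.2 TPM, Rps12 at 660.0 ± 72.7 TPM and Rps3, which lines the mRNA entry channel, at 680 ± 47.1 TPM. The least steady member after Rps27 was Rps4l, with a coefficient of variation of 16.4%.

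Members with a longer listed transcript had lower levels. Across the 79 genes the Pearson correlation of log2 TPM with log2 length was -0.55 and Spearman's rho was -0.47, given as a description, since genes are not independent replicates and TPM is itself divided by length. Rps15a, the lowest by TPM, has the longest listed length, 5134 bases. Before division by length it had 379.7 to 599 CPM. GENCODE vM21 lists a protein-coding transcript of 640 bases for Rps15a. Of 7 members with a listed length of 1500 bases or more (Rps15a, Rpl22, Rpl5, Rps3, Rpsa, Rpl21 and Rpl15), 5 have a protein-coding transcript under 1000 bases in GENCODE, namely Rps15a, Rpl22 (474 bases), Rps3 (489 bases), Rpl15 (802 bases) and Rpl21 (899 bases). Their TPM depends on which transcript is taken, and the effect on the level was not tested.

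Some levels rest on how reads were divided between near-identical genes. For 17 of the 79 members at least 1 expected count was not an exact whole number as deposited, as RSEM gives where it splits reads between genes, and 6 of them were set beside a named copy. Rps27 averaged 284 TPM and its retrogene Rps27rt 2123 TPM, and Rps27 took 7.06% to 19.5% of the counts of the pair. The coefficient of variation was 35.0% for Rps27 alone and 5.68% for the sum of both, which ran from 2172 to 2568 TPM. Rpl34 averaged 311 TPM beside 1370 TPM for the copy Rpl34-ps1 and took 23.2% to 29.1% of the counts of that pair. Copies took little of Rpl14, Rpl31, Rpl37 and Rps15a, which kept at least 93.1% of the counts of their pairs in every library. Levels of Rps27 and Rpl34 alone are therefore uncertain.

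The X-linked Rps4x averaged 1620 ± 172 TPM and Rps4l on chromosome 6, at 148354656 to 148355596, averaged 773 ± 126 TPM (SD, n = 12), and both had whole counts throughout. The listed length of Rps4l, 941 bases, equals the span of its gene, so the annotation gives it no intron, and its transcript is annotated as non-coding. Among paralogs and fusion genes outside the chosen symbols, Rpl36al averaged 2518 ± 163 TPM and Fau, a fusion to a small subunit protein, 2038 ± 211 TPM. Rpl22l1 averaged 401 ± 102 TPM, more than its paralog Rpl22 at 179 TPM, and Rpl39l averaged 302 ± 45.9 TPM. Rpl7l1 averaged 168 ± 14.1 TPM and Rpl10l 49.0 ± 16.1 TPM, and Rpl3l, a muscle paralog, stayed at 0 to 0.34 TPM.

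**Figure D2:**
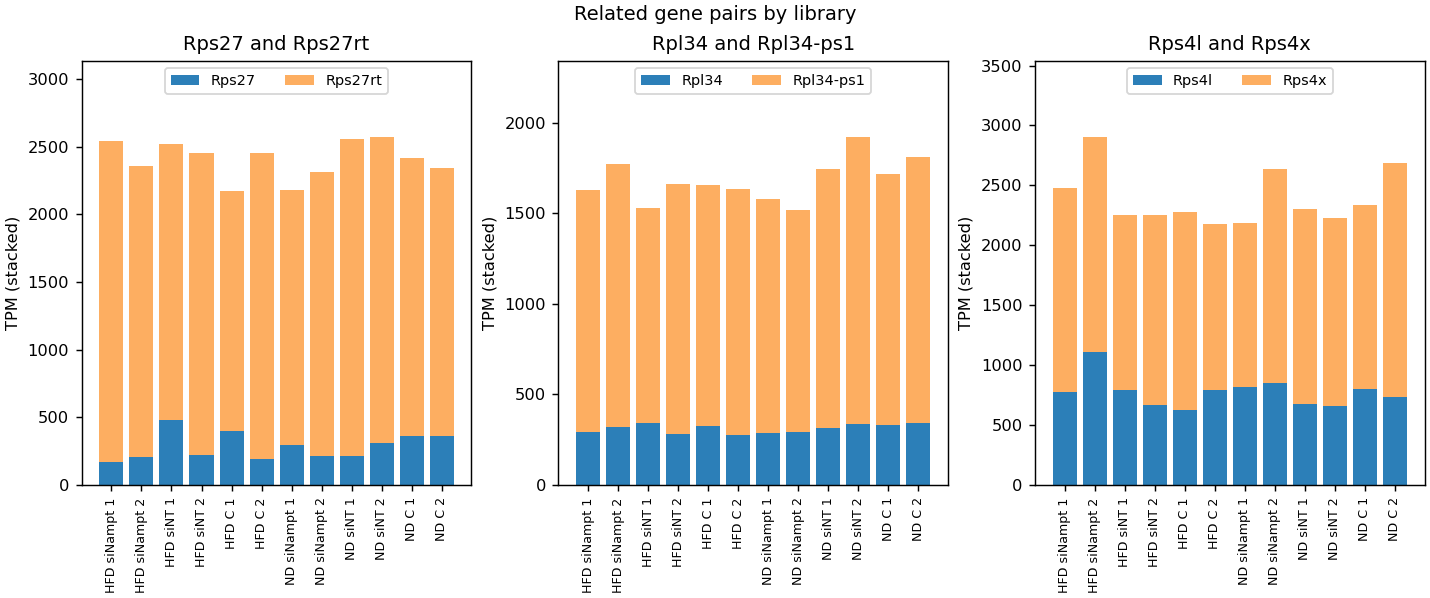
Stacked TPM by library for Rps27 and Rps27rt (left), Rpl34 and Rpl34-ps1 (middle) and Rps4l and Rps4x (right), 12 libraries in the order HFD and then ND. The split between Rps27 and Rps27rt varies more than their sum, which stays between 2172 and 2568 TPM.

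Summed over each subunit, the share of ribosomal protein mRNA in siNampt pools lay on opposite sides of siNT in the 2 diets. In HFD the large subunit summed to 80838 and 80573 TPM in siNampt pools, against 74924 and 73518 TPM in siNT pools and 72075 and 74122 TPM in C pools. In ND it summed to 71255 and 72104 TPM in siNampt pools, against 77277 and 77270 TPM in siNT pools and 77007 and 77368 TPM in C pools. The HFD siNampt pools were the highest of all 12 libraries and the ND siNampt pools were at or near the lowest, with HFD C replicate 1 between them. The small subunit in HFD summed to 72466 and 70732 TPM in siNampt pools, against 67321 and 66877 TPM in siNT pools and 66169 and 67510 TPM in C pools. In ND it summed to 64816 and 66720.3 TPM in siNampt pools, against 70749 and 73309 TPM in siNT pools and 70051 and 69545 TPM in C pools. Within each diet the siNampt pools did not overlap the siNT or the C pools for either subunit. The log2 ratio of group means, siNampt over siNT, was 0.12 in HFD and -0.11 in ND for the large subunit, and 0.09 in HFD and -0.13 in ND for the small subunit. These sums were not tested. The ratio of large to small subunit TPM stayed between 1.05 and 1.14 in all libraries.

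**Figure D3:**
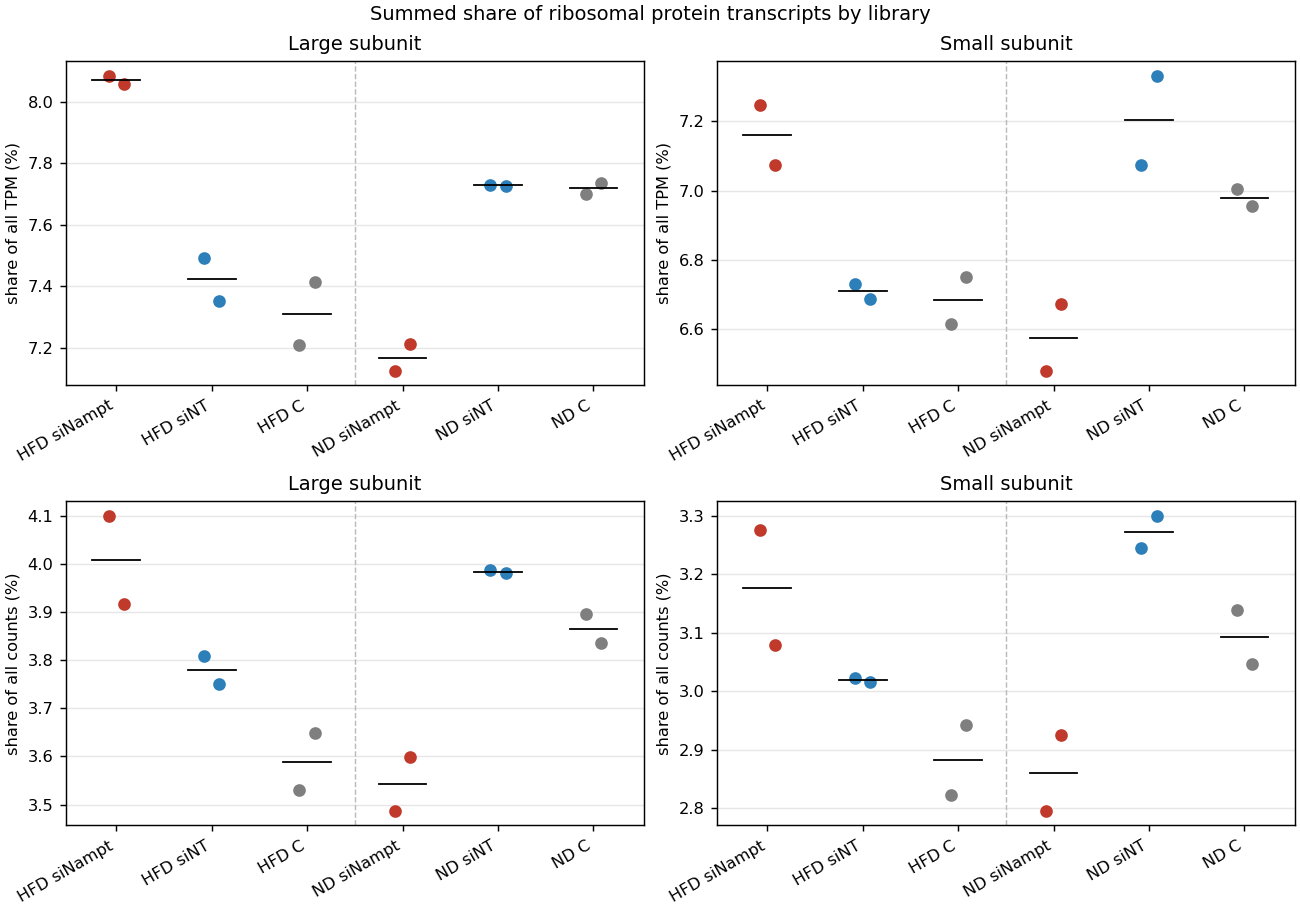
Share of all TPM (top) and of all counts (bottom), in percent, of the large (left) and small (right) subunit genes, with 1 dot per library, a bar at the mean of each group of 2 and groups in the order siNampt, siNT and C within HFD and ND. By TPM the siNampt pools lie above siNT and C in HFD and below them in ND. The axes do not start at 0.

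In ND, ribosomal protein mRNAs of both subunits were lower by count in siNampt than in siNT pools, though none passed the test. The median log2 fold change of TMM-scaled counts was -0.33 for the large subunit (range -0.54 to -0.03) and -0.30 for the small subunit (range -0.51 to 0.14), against 0.01 over all genes tested. Of the 79 members 78 were lower, a direction that 49.0% of all genes had, and the exception was Rps4l. In CPM the siNampt pools lay below the siNT pools without overlap for 67 of 79 members (background 19.8%), 40 of the large and 27 of the small subunit, and above them for 1 (background 21.5%). With edgeR 0 of 79 passed at an adjusted p of 0.05 (background 0.0%), as 0 did with DESeq2 and with limma on TPM, and 47 had an unadjusted p under 0.05, all lower (background 3.74% lower and 4.61% higher). The median over all members was -0.22 with library totals in place of TMM factors (all genes 0.10), -0.13 in TPM (all genes 0.09) and -0.07 after correction for length. Per length, in TPM, 48 of 79 members were lower without overlap (background 9.76%) and 5 were higher (background 33.6%).

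The members of smallest p in ND were Rps13, Rps15a and Rps21 of the small subunit and Rpl31, Rpl11 and Rpl39 of the large subunit. Rps13 had 588 and 534 CPM in ND siNampt pools, against 794 and 783 CPM in ND siNT pools and 649 and 589 CPM in ND C pools. The siNampt pools were low and the siNT pools high, and the C pools lay between them, 1 of them just above the siNampt pools. Its log2 fold change of siNampt over siNT was -0.49 (SE 0.13, adjusted p = 0.536, edgeR). Rpl39 had 551 and 546 CPM in ND siNampt pools, against 795 and 799 CPM in ND siNT pools and 619 and 681 CPM in ND C pools. Here too the siNT pools stood highest and the C pools in between, and the log2 fold change was -0.54 (SE 0.17, adjusted p = 0.536, edgeR). Rpl11, which with Rpl5 and 5S rRNA is known to bind Mdm2 when ribosome assembly is disturbed, had 539 and 517 CPM in ND siNampt pools, against 702 and 707 CPM in ND siNT pools and 590.4 and 589.9 CPM in ND C pools. Its log2 fold change was -0.42 (SE 0.13) and that of Rpl5 was -0.33 (SE 0.16). Rpl31 differed by -0.43, Rps15a by -0.51 and Rps21 by -0.47 on the log2 scale. The members that differed least were Rps2 (-0.00392), Rpl8 (-0.03), Rplp0 (-0.03) and Rpl7a (-0.03), named after their values were seen.

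Within the stalk, Rplp1 and Rplp2 differed by -0.34 (SE 0.15) and -0.32 (SE 0.14) in ND and Rplp0 by -0.03 (SE 0.13), siNampt over siNT on the log2 scale. Rplp1 had 313 and 347 CPM in ND siNampt pools, against 421 and 414 CPM in ND siNT pools. Rplp0 had 1110.1 and 1218 CPM in ND siNampt pools, against 1297 and 1082 CPM in ND siNT pools. The groups were apart for Rplp1 and overlapped for Rplp0, and neither passed the test.

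The ND groups also differed in other measures. The 8 trophectoderm markers summed to 4879 to 5278 TPM in ND siNampt pools, against 2784 to 3189 TPM in ND siNT pools and 3519 to 3831 TPM in ND C pools, mostly from Krt18 and Krt8. All 8 had a higher log2 fold change of siNampt over siNT in ND (median 0.52), 0 of 8 passed the test, and 4 had an unadjusted p under 0.05 (background 4.61% higher). The 8 inner cell mass markers summed to 156 to 168 TPM in ND siNampt pools, against 154 to 165 TPM in ND siNT pools and 201 to 221 TPM in ND C pools. Their median log2 fold change of siNampt over siNT was -0.41 with 5 of 8 lower, 0 called and 2 lower at an unadjusted p under 0.05 (background 3.74%). Whether the makeup of the embryos bears on the ribosomal protein values was not tested, and in pooled embryos fewer cells of a type and less RNA per cell cannot be told apart. In the pairs of the same batch the median log2 difference in CPM, siNampt minus siNT, was -0.32 in batch 1 and -0.33 in batch 2 for the large subunit, and -0.33 in both batches for the small subunit.

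In HFD the members of both subunits differed little by count between siNampt and siNT pools, and none passed the test. The median log2 fold change was -0.05 for each subunit (large -0.36 to 0.21, small -1.11 to 0.23) against 0.04 over all genes tested, and 55 of 79 members were lower (background 46.3%). The sign of this median depended on the scale: it was 0.10 over all members in TPM (all genes 0.07), 0.07 with library totals in place of TMM factors (all genes 0.16) and 0.02 after correction for length (all genes 0.00). In CPM 10 members were lower without overlap (background 15.6%) and 5 higher (background 17.9%). In TPM 32 were higher without overlap (background 22.3%) and 1 was lower (background 8.75%). With edgeR 0 of 79 passed (background 0.0%), as with DESeq2 and limma, and 2 had an unadjusted p under 0.05, both lower (background 2.31% lower and 1.97% higher). Leaving out HFD siNampt replicate 1 put the medians at -0.13 for the large and -0.12 for the small subunit, and leaving out HFD siNT replicate 2 put the small subunit at 0.03. The batches lay on opposite sides of 0: the median log2 difference in CPM, siNampt minus siNT, was 0.05 in batch 1 and -0.16 in batch 2 for the large subunit, and 0.07 and -0.17 for the small subunit. The trophectoderm markers summed to 3437 to 4996 TPM in HFD siNampt pools, against 3398 to 3610 TPM in HFD siNT pools, and their part in the values was not tested.

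Those 2 members were Rps27 and Rpl30. Rps27 had 25.01 and 27.3 CPM in HFD siNampt pools, against 77.4 and 35.4 CPM in HFD siNT pools and 54.9 and 27.2 CPM in HFD C pools. The siNT difference rested on replicate 1, since the other siNT pool was close to the siNampt pools. The log2 fold change of Rps27 was -1.11 (SE 0.37, adjusted p = 0.923, edgeR), and -0.44 without HFD siNT replicate 1, the library with the shortest fragment measure (length minus effective length of 186 bases, against up to 231 bases); the part of fragment size in this value was not tested. With every gene that had a count left in, Rps27 was the only member that edgeR called, at -1.12 in HFD (adjusted p = 0.000615), -0.69 over both diets (adjusted p = 0.00698) and -0.59 against C (adjusted p = 0.0485). Its retrogene Rps27rt, which shares its reads, differed by -0.13 (SE 0.16) in HFD. Rpl30 had 116 and 96.4 CPM in HFD siNampt pools, against 145 and 127 CPM in HFD siNT pools, and a log2 fold change of -0.36 (SE 0.16, adjusted p = 0.923, edgeR). Rpl8, which lies next to the peptidyl transferase centre, and Rps4l were the highest, at 0.21 (SE 0.13) and 0.23 (SE 0.15), and Rpl18 stood at 0.18 and Rps28 at -0.24. Without HFD siNampt replicate 2 Rps4l stood at 0.00385, and Rps28 stood at -0.09 without HFD siNT replicate 1 and at -0.40 without HFD siNT replicate 2.

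Over both diets most members were lower by count in siNampt than in siNT pools and none passed the test, with a median log2 fold change of -0.20 for the large subunit and -0.18 for the small subunit against 0.025 over all genes. The medians over all 79 members kept this sign on every scale, but shrank to -0.09 with library totals (all genes 0.13), -0.02 in TPM (all genes 0.07) and -0.03 after correction for length. Of the members 75 were lower (background 47.2%), and the 4 others were Rpl7a, Rpl8, Rpl13 and Rps4l. With edgeR 0 passed (background 0.0%), as with DESeq2 and limma, and 32 had an unadjusted p under 0.05, all lower (background 5.05% lower and 6.1% higher). In CPM 8 of 79 were lower without overlap between the 4 siNampt and the 4 siNT pools (background 2.71%) and 0 were higher (background 3.38%). In TPM 0 were lower (background 0.828%) and 1 was higher (background 5.32%).

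The smallest p values over both diets belonged to Rpl30, Rpl23 and Rpl21 of the large subunit and to Rps13, Rps15a and Rps25 of the small subunit. Rpl30 had 116 and 96.4 CPM in HFD siNampt and 111 and 90.6 CPM in ND siNampt pools, against 145 and 127 CPM in HFD siNT and 142 and 129 CPM in ND siNT pools. All 4 siNampt values lay below all 4 siNT values. The log2 fold change of Rpl30 was -0.39 (SE 0.11, adjusted p = 0.396, edgeR), and that of Rps13 was -0.33 (SE 0.10, adjusted p = 0.396). Rpl23 stood at -0.30, Rpl21 at -0.24, Rps15a at -0.32 and Rps25 at -0.23, all at the same adjusted p.

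The difference between the diets in the siNampt response was tested by the interaction, HFD response minus ND response. Its median was 0.25 for the large and 0.25 for the small subunit against 0.02 over all genes, and 77 of 79 members were above 0 (background 51.3%), with Rps27 (-0.87) and Rps2 (-0.06) below 0. The median over all members was 0.21 in TPM, 0.28 with library totals and 0.11 after correction for length. With edgeR 0 of 79 passed (background 0.0%), as with DESeq2 and limma, and 4 had an unadjusted p under 0.05, all above 0 (background 1.44% above and 1.62% below). Rps21 had 313 and 274 CPM in HFD siNampt pools, against 293 and 288 CPM in HFD siNT pools, and 227 and 234 CPM in ND siNampt pools, against 309 and 327 CPM in ND siNT pools. Its groups overlapped in HFD and were apart in ND, and the interaction was 0.48 (SE 0.19, adjusted p = 1.00, edgeR). Rps10 and Rps20 of the small subunit stood at 0.42 and 0.45, and Rpl10a, Rpl18 and Rpl17 of the large subunit at 0.47, 0.40 and 0.38. Without HFD siNampt replicate 1 Rps20 stood at 0.23, and without ND siNampt replicate 1 Rpl18 stood at 0.25. In TPM 17 of 79 members lay higher in HFD and lower in ND siNampt pools without overlap with siNT, as 195 of 14743 genes did (1.32%). They were 10 of the large subunit, among them Rpl11, Rpl38, Rpl41 and Rplp2, and 7 of the small subunit, among them Rps16, Rps21 and Rps23. In CPM 3 members did (Rpl8, Rpl18 and Rps10), against 1.83% of all genes, so the count depends on the scale.

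**Figure D4:**
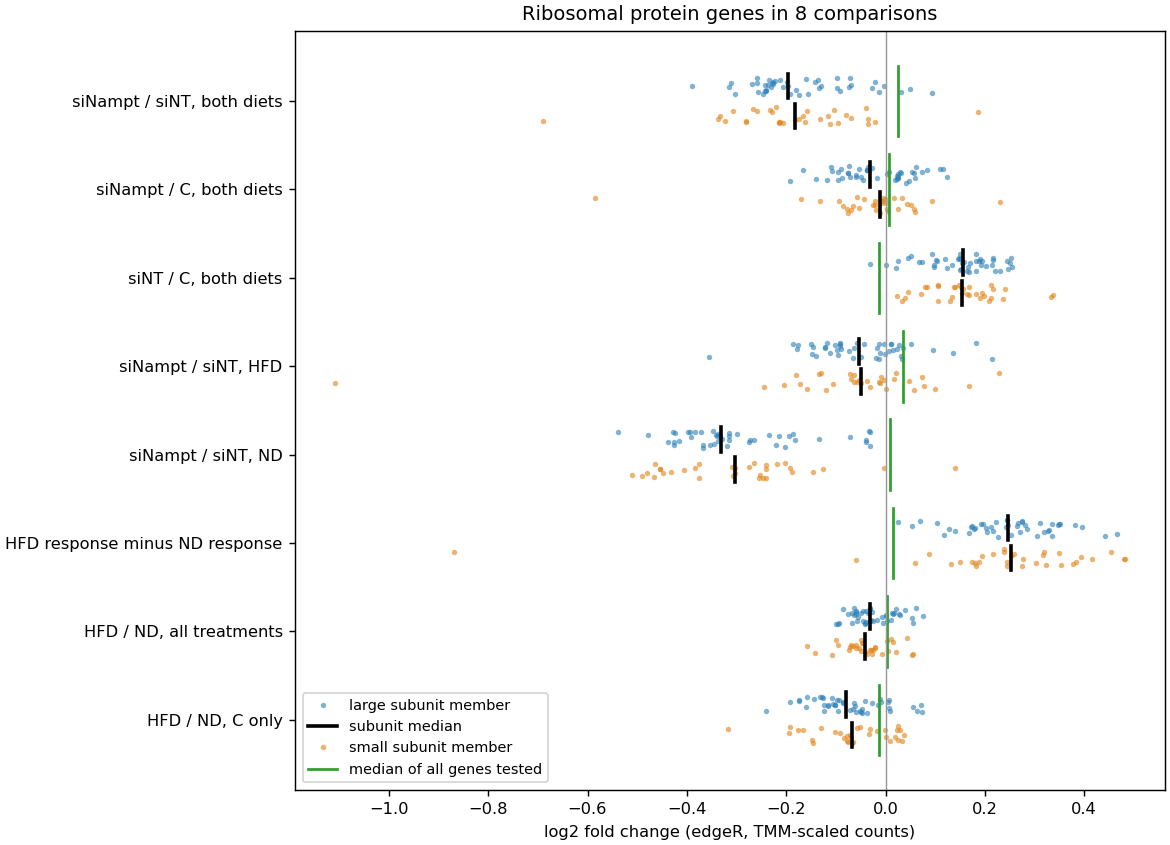
log2 fold change of each large (blue) and small (orange) subunit gene in 8 comparisons from edgeR on TMM-scaled counts, with black bars at the subunit medians and green bars at the median of all genes tested. All but Rps4l lie left of 0 for siNampt over siNT in ND (medians -0.33 and -0.30), all but Rplp0 lie right of 0 for siNT over C and all but Rps27 and Rps2 for the interaction, and no member passed an adjusted p of 0.05. For siNampt over siNT in HFD the sign of the median turns in TPM, with library totals and after correction for length.

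Nearly all members were higher by count in siNT than in C pools, and none passed the test. The median log2 fold change of siNT over C was 0.16 for the large and 0.15 for the small subunit, against -0.01 over all genes, and 78 of 79 members were higher (background 47.8%), with Rplp0 at -0.03 as the exception. In CPM 10 members were higher without overlap of the 4 siNT and the 4 C pools (background 1.51%) and 0 were lower (background 1.76%). In TPM 0 were higher and 0 lower (background 0.414% and 2.96%). The median stayed above 0 on every scale but was 0.08 with library totals, 0.01 in TPM and 0.01 after correction for length. With edgeR 0 passed (background 0.0%), as with DESeq2 and limma, and 14 had an unadjusted p under 0.05, all higher (background 1.97% higher and 2.42% lower). Rps25 had 1438 and 1425 CPM in HFD siNT and 1569 and 1576 CPM in ND siNT pools, against 1291 and 1242 CPM in HFD C and 1355 and 1208 CPM in ND C pools. All siNT values lay above all C values, and the log2 fold change was 0.24 (SE 0.08, adjusted p = 0.984, edgeR). Rpl41 had 1469 and 1503 CPM in HFD siNT and 1546 and 1709 CPM in ND siNT pools, against 1203 and 1281 CPM in HFD C and 1384 and 1361 CPM in ND C pools. These did not overlap either, with a log2 fold change of 0.25 (SE 0.10). Rps28 stood at 0.33, Rps29 at 0.34, Rpl29 at 0.25 and Rpl38 at 0.24. Rps27rt, outside the chosen symbols, stood at 0.34 (SE 0.11).

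Against the C pools, the members of the siNampt pools lay on both sides of 0. The median log2 fold change was -0.03 for the large and -0.01 for the small subunit against 0.01 over all genes, 46 of 79 members were lower (background 48.9%), and the median over all members was 0.02 with library totals and 0.01 in TPM. With edgeR 0 passed (background 0.0%), as with DESeq2 and limma, and 1 member was lower and 1 higher at an unadjusted p under 0.05 (background 1.61% and 2.19%). The diets differed in the pairs of the same batch, with no test of that difference. The median log2 difference in CPM, siNampt minus C, for the large subunit was 0.14 in batch 1 and 0.0031 in batch 2 of HFD, and -0.15 and -0.10 in ND. For the small subunit it was 0.11 and -0.01 in HFD, and -0.16 and -0.05 in ND. In HFD 11 and 23 of the 46 large and 7 and 19 of the 33 small members were lower in batches 1 and 2, and in ND 44 and 36 of the large and 31 and 22 of the small. Over both diets, in CPM 0 were lower and 0 higher without overlap (background 0.861% and 1.45%), and in TPM 1 was lower and 0 higher (background 0.733% and 1.38%). Rps4l was the higher, at 0.23 (SE 0.10, adjusted p = 0.999, edgeR), and Rps27 the lower, at -0.59 (SE 0.27). Rps4l had 564 and 731 CPM in HFD siNampt and 582 and 609 CPM in ND siNampt pools, against 469.7 and 556 CPM in HFD C and 581 and 512 CPM in ND C pools. HFD siNampt replicate 2 was high, the groups overlapped, and without that library the log2 fold change was 0.13. Rps15a stood at -0.17, Rpl7 at -0.19, Rpl13 at 0.12 and Rpl26 at -0.17, or -0.09 without ND siNampt replicate 2. This comparison and that of siNT with C share the C pools, and this one shares the siNampt pools with the comparison against siNT.

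Between diets the medians lay close to 0. Over all treatments the median log2 fold change of HFD over ND was -0.03 for the large and -0.04 for the small subunit against 0.00 over all genes, with 56 of 79 lower (background 49.2%). The median over all members was 0.01 after correction for length. With edgeR 0 passed (background 0.0%), as with DESeq2 and limma, and 0 had an unadjusted p under 0.05 (background 1.49% lower and 1.72% higher). In CPM 0 were lower and 0 higher without overlap of the 6 HFD and the 6 ND pools (background 0.0475% each). Rps3a1 was the member of smallest p, at -0.16 (SE 0.08, adjusted p = 1.00, edgeR). It had 1745, 1772, 1629, 2194, 1831 and 1924 CPM in the HFD pools, against 1962, 1827, 2492, 2198, 2028 and 1918 CPM in the ND pools, and the diets overlapped. Without HFD siNT replicate 1 it stood at -0.09. Rps27l stood at -0.14, Rps15 at -0.10, Rpl15 at -0.10, Rpl36a at -0.10 and Rpl4 at -0.09. In the C pools alone the medians were -0.08 and -0.07 against -0.01 over all genes, with 62 lower (background 51.7%). In CPM 22 were lower without overlap (background 15.5%) and 1 higher (background 14.1%), and in TPM 26 were lower (background 16.2%) and 0 higher (background 11.6%). The median over all members was 0.01 after correction for length, -0.08 in TPM and -0.12 with library totals, where 76 were lower. It was -0.04 without ND C replicate 1 and -0.10 without ND C replicate 2. With edgeR 0 passed there (background 0.0%), as with DESeq2 and limma, 0 had an unadjusted p under 0.05 (background 1.4% in each direction). The members of smallest p were Rplp1 at -0.24 (SE 0.15), Rps9 and Rps28 at -0.19, Rps10 and Rpl36 at -0.18 and -0.17 and Rpl18 at -0.16. Without HFD C replicate 1 Rps9 stood at -0.09, Rps28 at -0.06, Rpl36 at -0.06 and Rpl18 at -0.10, and without HFD C replicate 2 Rps9 stood at -0.30, Rps28 at -0.34 and Rpl36 at -0.29.

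Because the members are short, their fold changes were set beside those of other genes of the same listed length. For siNampt over siNT over both diets, other genes under 500 bases had a median of -0.24 (n = 156) and the 17 members of that length -0.23. From 500 to under 750 bases the medians were -0.20 for 30 members and -0.19 for 477 other genes, and from 750 to under 1000 bases -0.14 for 15 members and -0.12 for 681 other genes. Short genes in general were thus as low as the ribosomal protein genes, while other genes of 1500 to under 2500 bases had a median of 0.08. The members of listed length 1500 to under 2500 bases did not follow their bin: the 6 members had a median of -0.21. In GENCODE 4 of them have a protein-coding transcript under 1000 bases, as given above. Rpl5 and Rpsa have none that short (shortest 2045 and 1599 bases). The part of the listed length in this departure was not tested. Rps15a, listed at 5134 bases, stood at -0.32 against 0.03 for other genes of 4000 bases or more. In ND the medians under 500 bases were -0.37 for members and -0.36 for other genes, and in the bin of 1000 to under 1500 bases -0.20 for 10 members and -0.03 for 1757 other genes. For siNT over C the medians were 0.21 for members and 0.22 for other genes under 500 bases, and 0.12 for members and -0.04 for other genes from 1500 to under 2500 bases. For the interaction the members stood at 0.24 against 0.10 for other genes from 750 to under 1000 bases and at 0.23 against -0.02 from 1000 to under 1500 bases. Whether the length trend comes from the libraries or the embryos was not tested.

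**Figure D5:**
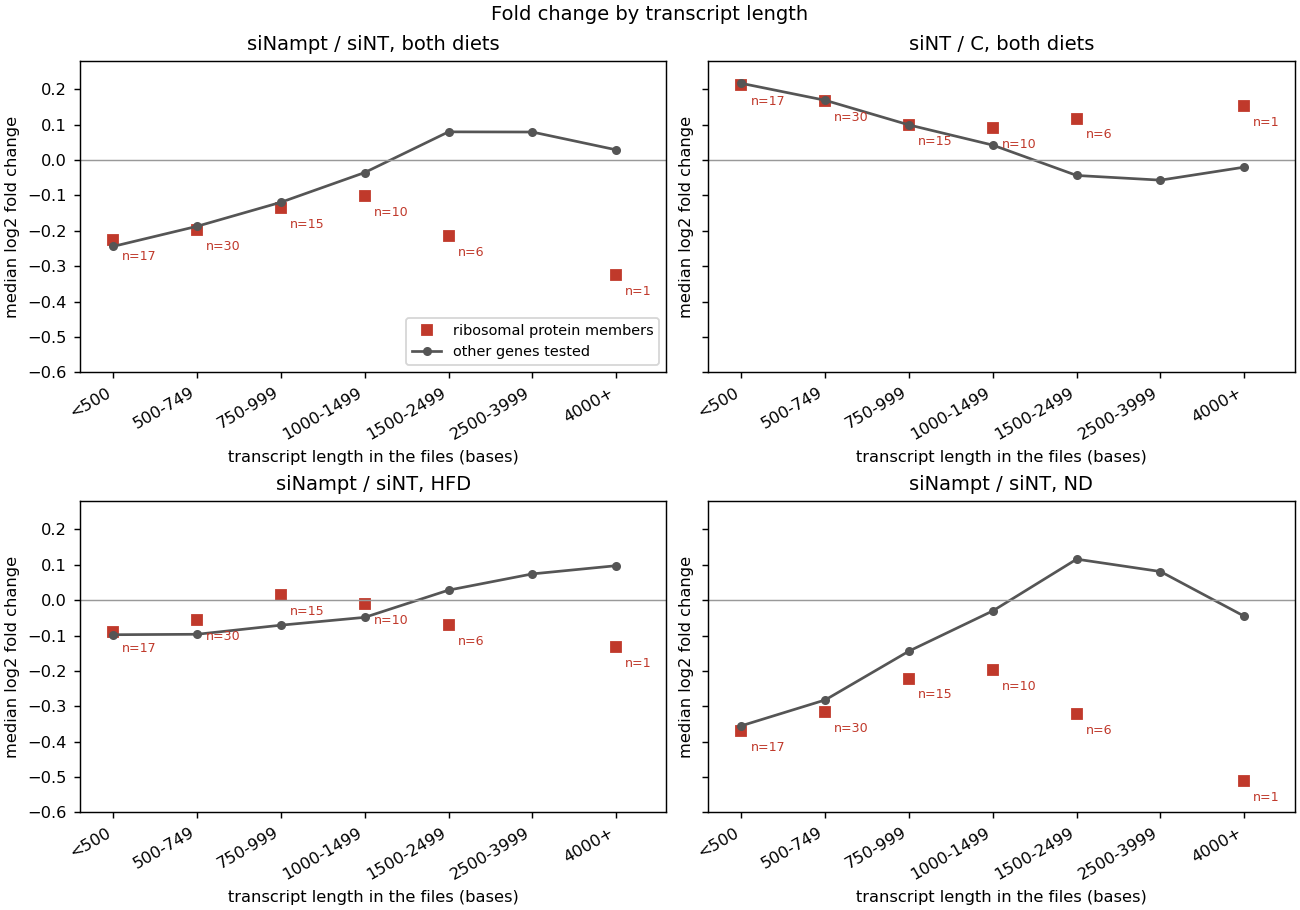
Median log2 fold change by listed transcript length (bins in bases) for ribosomal protein genes (red squares, with their number) and for all other genes tested (dark line), in 4 comparisons. Below 1000 bases the squares lie on or near the line for siNampt over siNT over both diets and for siNT over C, while the 6 members from 1500 to under 2500 bases lie off it (-0.21 against 0.08 for siNampt over siNT over both diets).

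The medians of the wider translation machinery lay nearer to 0. Of 41 translation factors tested, 24 were lower and 17 higher in siNampt than in siNT pools over both diets, with a median log2 fold change of -0.06 and 0 called by edgeR (6 lower and 5 higher at an unadjusted p under 0.05, against 5.05% lower and 6.1% higher over all genes). Their median listed length, 1910 bases, is well above that of the ribosomal proteins. The same holds for the ribosome biogenesis factors (2476 bases) and the mTORC1 and TOP control genes (2606 bases) described next. The part of length in the contrast with the ribosomal proteins was not tested. Eif3b, a subunit of the initiation factor eIF3, stood at 0.47 (SE 0.12) and Eef2, which moves the ribosome along the mRNA, at 0.44 (SE 0.13), opposite in sign to the ribosomal proteins and not past the adjusted threshold (adjusted p = 0.396, edgeR). Of 57 ribosome biogenesis factors, 29 were lower and 28 higher, with a median of -0.02 and 0 called (8 lower and 8 higher at an unadjusted p under 0.05). Grwd1, whose yeast homolog is a chaperone of Rpl3, stood at 0.52 (SE 0.14) and Bysl, needed for the small subunit, at 0.52 (SE 0.15). In ND the median was -0.07 for translation factors and 0.03 for biogenesis factors, where Rrp9 stood at 0.82 (SE 0.23) and Rpf2 at -0.52 (SE 0.17), and Polr1b, a subunit of RNA polymerase I, stood at 0.57 (SE 0.18) in HFD. Of 19 genes of mTORC1 and of TOP mRNA control, 8 were lower and 11 higher over both diets, with a median of 0.09 and 0 called (2 lower and 1 higher at an unadjusted p under 0.05). Akt1s1, an inhibitor of mTORC1, stood at 0.61 (SE 0.20) and Rheb, its activator, at -0.36 (SE 0.15), with adjusted p of 0.396 and 0.410 in edgeR. Of the paralogs and fusion genes 8 of 9 were lower for siNampt over siNT over both diets, with a median of -0.18, among them Rpl36al at -0.26 (SE 0.10), and Fau stood at -0.02.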

How the data were processed

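Libraries were made with SMART-Seq v4 PLUS from pools of 10 blastocysts, per the labels' protocols, and STAR 2.7.10, RSEM 1.2.28 and mm10 are named in the submitters' processing notes, with strand and settings not given in the sources used here. Per the file headers each deposited table gives RSEM's expected count, TPM and transcript length for every gene of 1 library. RSEM divides reads that match several genes, which left 6.43% of these counts fractional; they were rounded to integers. TPM, which the authors scaled to the same total in each library, was used for levels, and FPKM was not used here.

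Genes were filtered with filterByExpr (minimum count 10), scaled by TMM and compared by the quasi-likelihood F test of edgeR 4.0.16 (R 4.3.3, two-sided, Benjamini-Hochberg over 14743 genes, threshold 0.05), with all 12 libraries in each fit. A model of diet and treatment gave effects over both diets, and a model of the 6 group means gave those within a diet and the interaction. Standard errors were derived from each log2 fold change and its F statistic. CPM values are TMM-scaled. At 42473129 to 50503064 counts per library the median SE of a member was 0.10 over both diets and 0.14 within a diet. The tests were run on simulated data with changes larger than the member medians reported here, so that check does not show how often changes of this size are found. The labels tag each replicate number as a batch, so numbers pair the libraries. The correlation between groups of their replicate differences ran from -0.10 to 0.41 over 15 pairs of groups, and 8 were above 0.1.

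Alternatives were RLE factors, TMM without the members, library totals only, DESeq2 1.42.0, limma 3.58.1 on log2(TPM + 1), no filter, a filter of 5 CPM in 2 libraries, the replicate block, a length correction (a lowess trend, span 0.3, of log2 fold on log2 length as offset) with and without the block, only the libraries compared, and leaving out each library. Library totals and members with whole counts were chosen after seeing the data. Named genes are the 5 highest and lowest members of each subunit by TPM, the 3 of smallest p per subunit and comparison, the stalk proteins, Rps27, Rps27l, Rps4x and Rps4l, the paralogs, and from each pathway list up to 2 of smallest p. The members and lists were chosen with earlier results of these data known. A few genes that this rule names are not reported here.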

Additional observations from a re-analysis of the deposited data

Results flagged for a closer look

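Of 50 checks of a group for a library far from the others, in which chance gives about 1 in 20, both that came out concern Rps4l. In the 6 HFD pools HFD siNampt replicate 2 had 1104.23 TPM, while the next highest had 789.67 TPM. In the 4 siNT pools HFD siNT replicate 1 had 789.67 TPM, while the others had 659 to 671 TPM.

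The summed TPM of both subunits moved in opposite directions by diet, with every siNampt pool above the siNT pools in HFD and below them in ND. The log2 ratio of siNampt over siNT was 0.1208 in HFD and -0.1084 in ND for the large subunit, and 0.0937 in HFD and -0.1312 in ND for the small subunit. The difference of these sums was not tested, and by gene 0 of 79 members passed the interaction test in edgeR.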

How the results depend on the processing

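Across 8 comparisons 0 of 79 members were called by edgeR, and this held with RLE factors, TMM factors without the members, library totals, DESeq2, limma, the stricter filter, the length correction, the libraries compared alone and each library left out (0 to 0 called). Without the filter 1 member, Rps27, was called in siNampt over siNT over both diets, in siNampt over C and in siNampt over siNT in HFD, where edgeR called 119, 71 and 68 of 21789 genes in all; the cause was not tested. With the replicate block the medians for the large and small subunit were -0.20 and -0.18 for siNampt over siNT over both diets, -0.06 and -0.05 in HFD and -0.33 and -0.30 in ND. The pairing changed no call of a member.

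The medians moved on scales that treat length or library size in another way, in HFD with the sign turned, and the cause was not tested. For the large and small subunit, siNampt over siNT over both diets gave -0.088 and -0.069 with library totals, -0.026 and -0.018 in TPM (limma), -0.033 and -0.022 with the length correction and -0.035 and -0.022 with that correction and the block. In HFD, in the same order of settings, these were 0.066 and 0.073, 0.094 and 0.106, 0.020 and 0.030, and 0.020 and 0.029. In ND they were -0.24 and -0.21, -0.15 and -0.12, -0.080 and -0.059, and -0.083 and -0.057. For siNT over C they were 0.080 and 0.081, 0.012 and 0.0031, 0.0078 and 0.0062, and 0.0079 and 0.0062. The length correction put the interaction at 0.11 and 0.11, also with the block, and HFD over ND in C pools at -0.0033 and 0.037, or 0.00478 and 0.038 with the block. It turned Rpl38 in siNT over C to -0.036 and Rps28 in HFD over ND in C pools to 0.0038, or to -0.037 and 0.0037 with the block.

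The sums were also taken as shares of all counts in place of TPM, without the TMM factors used for CPM elsewhere. The log2 ratio of siNampt over siNT was then 0.085 in HFD and -0.17 in ND for the large subunit. It was -0.19 in ND for the small subunit. Without Rpl41 and Rpl39 the large subunit in ND gave -0.090. With each library left out, the median in HFD ran from -0.13 to -0.022 for the large and from -0.12 to 0.033 for the small subunit, and the interaction from 0.17 to 0.26 and from 0.20 to 0.35. The ratio of summed TPM in ND ran from -0.16 to -0.11 for the small subunit. The median for siNampt over C turned to 0.01 without ND siNampt replicate 2 (large subunit) or replicate 1 (small subunit). With 2 pools per group the median SE of a member was 0.14 within a diet, and the expected counts of members with near-identical copies carry an error of assignment that replicates do not show.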

Other observations

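Of the members, 4 are on the X chromosome (Rpl10, Rpl36a, Rpl39 and Rps4x). Their median log2 fold change of siNampt over siNT was -0.16 over both diets and -0.30 in ND, against -0.20 and -0.32 for the 75 other members, and for HFD over ND in C pools it was -0.13, against -0.07 for the others. These values are given without a test. Among the paralogs, Rpl22l1 stood at -0.85 (SE 0.31) and Rpl39l at -0.54 for siNampt over siNT in ND, neither past the adjusted threshold in edgeR.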
